A study of Saccharomyces cerevisiae with 5 samples.

Results

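The 44 genes described here encode the core machinery that copies the budding yeast genome, out of 5886 genes in the tables. They were taken from a list of gene names, by the role of each protein and not by any measured value. The list holds the 6 subunits of the MCM helicase, the 6 subunits of the origin recognition complex with the loader CDC6, and 8 genes for helicase activation and origin firing. It also holds 11 genes of DNA polymerases alpha, epsilon and delta, 6 of the sliding clamp and its loader, 3 of the single-strand binding protein RPA, 2 that finish Okazaki fragments, and RNR1. Messenger RNA was sequenced from Saccharomyces cerevisiae lacking SUL1, a plasma membrane sulfate transporter, in 3 libraries, and from the wild type in 2. The knockout is labelled BY4741, the wild type WT4741, and the strain field reads S288C for both. BY4741 is a haploid of mating type a in which HIS3, LEU2, MET17 and URA3 are deleted. Growth was at 30 °C in rich YPD medium (1% yeast extract, 2% peptone and 2% glucose) for both, and only the knockout titles give an optical density, 0.6 at 600 nm. The labels do not say which marker replaced SUL1 or whether the knockout is a single clone. A further wild-type replicate named in the design text was not analysed here.

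In G1 the origin recognition complex, with CDC6, loads the MCM ring onto origins. In S phase CDC45 and the GINS complex join the ring to form the active helicase, polymerase alpha lays down primers, polymerase epsilon extends the leading strand and polymerase delta the lagging strand. Many of these genes are transcribed in a burst as cells leave G1. The transcription factor MBF binds the MluI cell cycle box, ACGCGT, in many of their promoters, and SBF binds the related Swi4-Swi6 cell cycle box. The early cell cycle box, bound by Mcm1 with Yox1 or Yhp1, gives a separate peak of transcription at the end of mitosis.

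Promoter windows of 300 bases, from 250 bases before the start codon to 50 from it on, were read from the RefSeq R64 genome and searched on both strands. The MluI box ACGCGT was found in 18 of the 44 replication genes, 40.9%, and in 182 of 5882 windows of all genes, 3.09%. It was present in 3 of 4 genes of polymerase alpha, 2 of 4 of polymerase epsilon, 3 of 3 of polymerase delta and in neither RNR1 nor any MCM gene. The following stretches are shown because they lie before the 3 catalytic polymerase subunits, the clamp and the flap nuclease, genes to which the expression results return. Those results also return to RFC1 and DPB4, whose windows held no MluI box. Capitals mark the MluI box, and each stretch is given 5′ to 3′ on the strand of its gene.
POL1 (chrXIV:429854-429944, + strand): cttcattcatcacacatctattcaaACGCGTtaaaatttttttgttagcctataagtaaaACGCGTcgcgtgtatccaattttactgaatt
POL2 (chrXIV:148072-148127, + strand): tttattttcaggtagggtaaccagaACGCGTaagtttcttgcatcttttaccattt
POL3 (chrIV:276681-276736, + strand): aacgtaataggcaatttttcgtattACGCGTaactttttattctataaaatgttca
POL30 (chrII:425931-425986, - strand): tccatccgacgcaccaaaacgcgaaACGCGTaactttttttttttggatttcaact
RAD27 (chrXI:225973-226080, - strand): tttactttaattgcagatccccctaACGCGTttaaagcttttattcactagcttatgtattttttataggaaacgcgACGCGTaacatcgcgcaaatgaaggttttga

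The early cell cycle box was found in 5 replication genes, 11.4%, and in 24 of all windows, 0.408%. Its matches stood before 4 MCM genes and CDC6, which act together at origins, and their stretches are shown for that reason, with the box in capitals.
MCM3 (chrV:86727-86792, + strand): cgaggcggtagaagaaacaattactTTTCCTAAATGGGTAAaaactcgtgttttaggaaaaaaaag
MCM5 (chrXII:691376-691441, + strand): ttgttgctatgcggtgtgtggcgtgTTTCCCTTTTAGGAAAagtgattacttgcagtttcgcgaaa
MCM6 (chrVII:121045-121110, - strand): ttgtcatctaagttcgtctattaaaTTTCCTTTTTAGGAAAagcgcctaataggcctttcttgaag
MCM7 (chrII:625522-625599, + strand): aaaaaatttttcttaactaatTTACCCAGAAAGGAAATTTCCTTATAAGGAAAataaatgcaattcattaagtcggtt
CDC6 (chrX:69120-69201, + strand): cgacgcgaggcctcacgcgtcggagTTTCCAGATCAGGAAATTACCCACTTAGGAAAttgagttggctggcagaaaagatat

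The windows of MCM7 and CDC6 each held a pair of adjoining matches. The letters CNCGAAA, used here for the Swi4-Swi6 box, occurred in 15 replication genes, 34.1%, and in 814 windows of all genes, 13.8%. This box and the MluI box can share no more than an end base. A match describes the letters of a window and not a site in use.

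**Figure D1:**
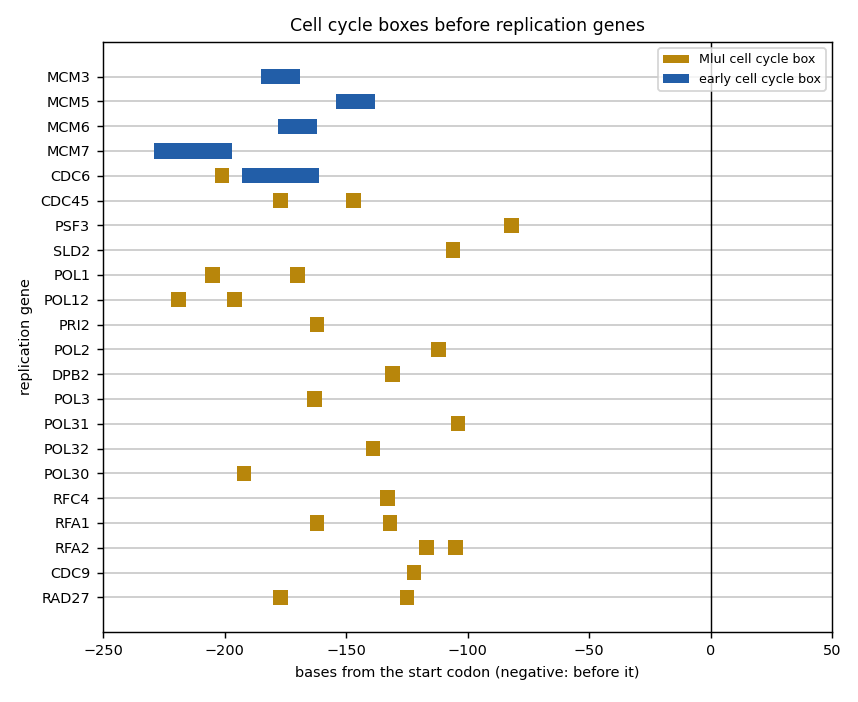
Positions of box matches in the promoter windows of the replication genes that hold a MluI box or an early cell cycle box, in bases from the start codon. The MluI box lies before 18 genes and the early cell cycle box before 5, and CDC6 is the gene with both.

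Expression was deposited as FPKM, which divide fragment numbers by library depth and a length, here near coding length less 135 to 145 bp. Levels of genes of unlike length can be set side by side only roughly, since fold changes also moved with coding length. The depth was estimated at 24500000 to 24850000 fragments in the knockout and at 22550000 and 24950000 in the wild type, and single replication genes rested on 58 to 4437 fragments. SUL1 was listed at 0 FPKM in all 3 knockout libraries, where 3 fragments would give at most 0.0503 FPKM, and at 8.28 and 9.78 FPKM in the wild type. Knockout replicate 2 stood apart from the others of its group. On the log2 scale its correlation across genes was 0.9881 and 0.9888 with knockout replicates 1 and 3, 0.9969 between those, and 0.9935 with wild-type replicate 1. Every result below is therefore also given without it where that changes a call. The mating-type a receptor STE2 and the alpha receptor STE3 stood at 115 to 145 and 8.38 to 11.8 FPKM over the 5 libraries. The other a genes AGA2, STE6 and BAR1 stood at 95.3 to 131, 11.8 to 19.2 and 8.6 to 16.95 FPKM. The other alpha genes SAG1, MF(ALPHA)2 and MF(ALPHA)1 stood at 8.26 to 11.6, 4.97 to 8.44 and 0 to 0.8 FPKM. STE6 and BAR1 were thus not far above STE3 and SAG1, and MFA1 and MFA2 were not matched by symbol.

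No replication gene differed between the genotypes past the threshold. The test was limma on log2(FPKM + 1) over 5712 genes, in which fold changes of low genes are understated, with a Benjamini-Hochberg adjusted p below 0.05 as the call. It called 0 of the 44 replication genes and 15 of all genes, 0.263%. The smallest adjusted p among them was 0.202, for DPB4. At an unadjusted p below 0.05, 6 replication genes, 13.6%, were on the lower side in the knockout (DPB4, MCM7, RFC1, RFA1, POL3 and MCM4), against 11.6% of all genes. All 3 knockout libraries lay below both wild-type libraries for 13 replication genes, 29.5%, and 28.0% of all genes did the same. All 3 lay above both for RFC4 alone, 2.27%, against 13.1% of all genes. The shares of 13.6% and 29.5% were near their backgrounds. The median log2 fold change of the 44 was -0.15, with 32 negative, and that of all genes was -0.07. The labels name the libraries biological replicates without saying how cultures were kept apart, so p-values measure the spread between these libraries. In whole cultures, fewer cells in S phase and less RNA per cell cannot be told apart.

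Without knockout replicate 2 the count differed. That library was singled out from these same values, for its likeness to wild-type replicate 1, so results without it are no independent support. Calls among all genes rose from 15 to 896 without it. They were 9 without knockout replicate 1 and 1 without knockout replicate 3. Without replicate 2, 7 replication genes, 15.9%, passed the threshold, against 10.5% of all genes called lower. All 7 were lower in the knockout (POL1, POL2, POL3, POL30, RFC1, DPB4 and RAD27). POL1 and POL2 fall below the filter at a mean of 10 FPKM. Every alternative was fitted over all genes past its filter. For 6 of the 7 (all but DPB4) the limma adjusted p was compared across the alternatives. Leaving out replicate 2 gave the smallest value of each, and 1.0 was the largest. When a trend on coding length was also removed from each library, a setting added after the data were seen, RAD27 and DPB4 passed, both with an adjusted p of 0.0347 in limma. That is 4.55% of the replication genes against 1.65% of all genes.

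**Figure D2:**
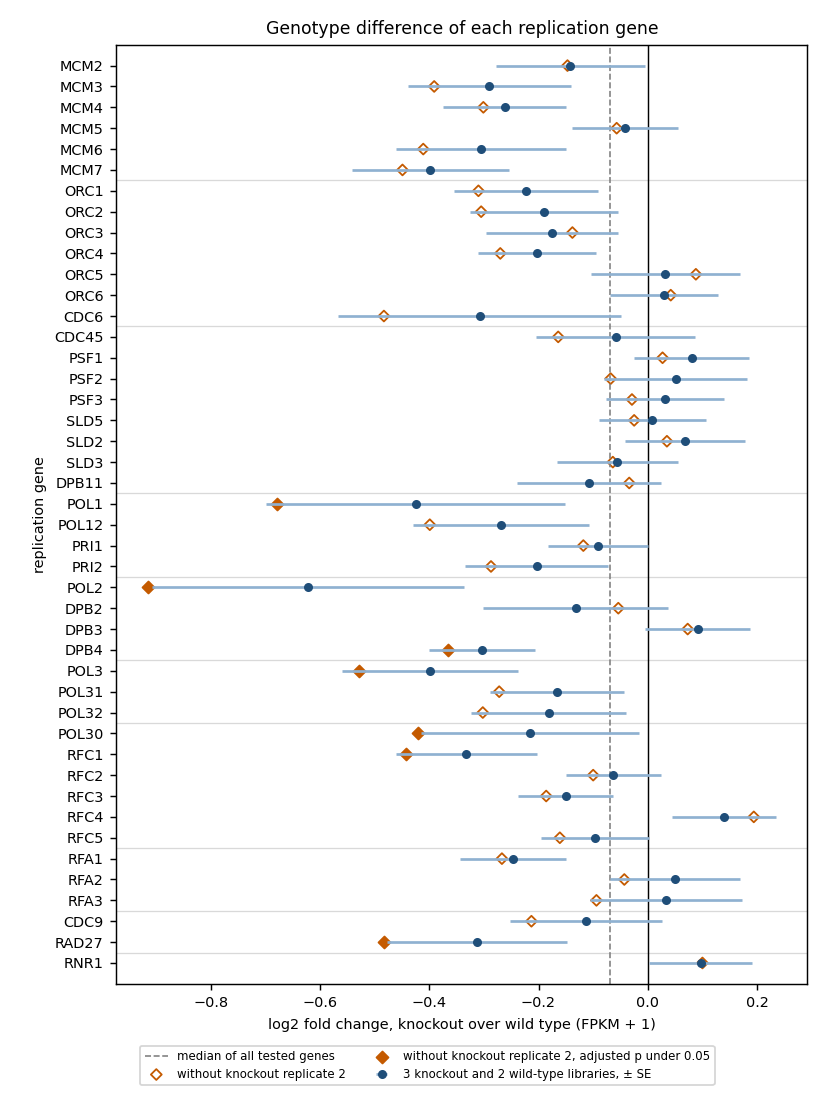
Log2 fold changes, knockout against wild type, of the 44 replication genes by role, with standard errors from limma. The values run from -0.62 for POL2 to 0.14 for RFC4, and no gene passed the threshold.

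The MCM subunits form the ring that unwinds DNA at the fork. All 6 genes had every knockout library below both wild-type libraries, as did 28.0% of all genes. The median coding length of the 6 was 2704 bp. Of all genes from 2000 to 3000 bp, 712 of 798 had a negative log2 fold change. None of the 6 MCM genes was called. Their median log2 fold change was -0.28, and -0.06 with the length trend removed. The sign was negative for all 6 on the deposited values and with equal FPKM sums. It turned positive for MCM5 with median-ratio scaling, and for MCM2 and MCM5 with the length trend removed. The latter also brought MCM3, MCM4, MCM6 and MCM7 nearer to 0, at -0.07, -0.05, -0.07 and -0.20. MCM7 (chromosome II, 625772 to 628309) read 11.25, 11.4 and 9.23 FPKM in knockout replicates 1, 2 and 3, and 13.3 and 15.3 FPKM in wild-type replicates 1 and 2. Its log2 fold change of -0.40 ± 0.14 (SE) was the furthest from 0 among the 6, with a limma adjusted p of 0.228. MCM4 stood at 17.7, 18.75 and 16.7 FPKM in the knockout and 20.4 and 22.6 in the wild type. The groups did not overlap, with wild-type replicate 1 the nearest to the knockout. MCM3 had 15.6, 17.9 and 13.2 FPKM in the knockout against 17.95 and 20.3. MCM6 had 9.73, 11.8 and 8.75 against 11.99 and 13.2. For both, knockout replicate 2 came close to wild-type replicate 1, so the separation rests on a narrow gap. MCM2 gave 7.86, 7.99 and 7.95 FPKM in the knockout and 8.29 and 9.46 in the wild type. MCM5 gave 21.8, 22.6 and 21.85 FPKM against 22.8 and 22.7. MCM5 differed least, with a log2 fold change of -0.04 ± 0.10 and a gap between the groups smaller than the spread within the knockout. Within the ring MCM2 had the lowest level and MCM5 the highest in all 5 libraries, with 2.40 to 2.83 times as many FPKM for MCM5. The order of the 6 was the same in 4 libraries, and MCM6 and MCM7 changed places in knockout replicate 2.

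The origin recognition complex marks origins through the cell cycle. Its 6 genes and CDC6 had a median log2 fold change of -0.19, or -0.05 with the length trend removed, and none was called. ORC1, the largest subunit, read 15.0, 17.8 and 14.3 FPKM in the knockout and 19.4 and 17.5 in the wild type, and the groups overlapped through knockout replicate 2. ORC4 was the gene of this group whose libraries did not overlap, at 24.4, 27.8 and 23.7 FPKM against 28.9 and 29.45. ORC5 and ORC6 had log2 fold changes of 0.03 each, and with equal FPKM sums both were negative. CDC6, which loads MCM and is destroyed at the start of S phase, had the lowest level of the 44 genes. It read 1.67, 3.20 and 2.20 FPKM in the knockout and 3.70 and 2.55 in the wild type. The lowest of these rests on 58 fragments, a counting error of 13.2%, and its log2 fold change was -0.31 ± 0.26 with overlapping groups.

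The genes for helicase activation had values around 0. CDC45 and the GINS subunits PSF1, PSF2, PSF3 and SLD5 complete the active helicase, and SLD2, SLD3 and DPB11 bring them to the origin. The median log2 fold change of the 8 was 0.02, with 5 positive on the deposited values, 7 positive with median-ratio scaling or the length trend removed, and 0 with equal FPKM sums. CDC45 read 10.7, 13.6 and 10.8 FPKM in the knockout and 12.2 and 12.1 in the wild type. Knockout replicate 2 was above and the other knockouts below the wild type. DPB11 read 21.4, 16.8 and 18.2 FPKM against 19.25 and 21.3, with knockout replicate 2 the lowest library. Its log2 fold change of -0.11 ± 0.13 was the furthest from 0 in the group. PSF3 had the highest level of the group in all 5 libraries, 121 to 144 FPKM, and CDC45 the lowest.

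**Figure D3:**
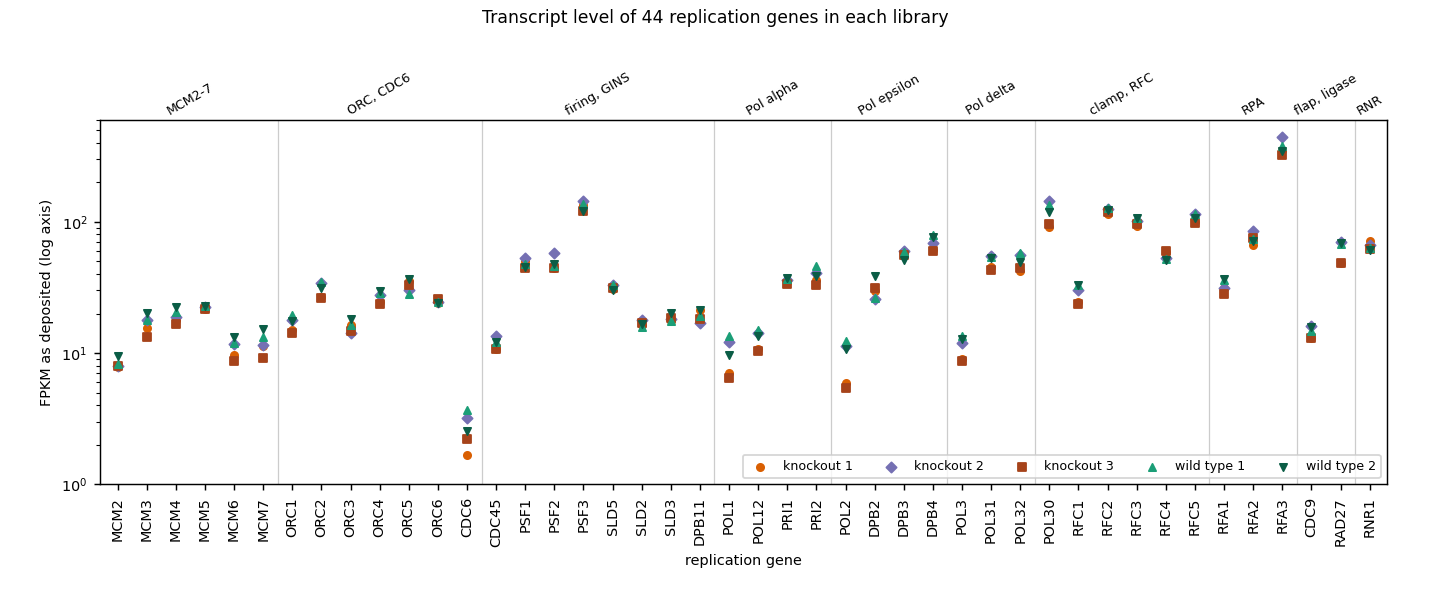
FPKM of the replication genes in each of the 5 libraries, on a log axis, by role and genotype. Levels run from CDC6, with a mean of 2.66 FPKM, to RFA3, with a mean of 368 FPKM.

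The catalytic subunits of the replicative polymerases held the most negative values of the 44 on the FPKM as deposited, while with the length trend removed DPB4 was the most negative. Each was also the lowest gene of its polymerase in all 5 libraries. POL2 (chromosome XIV, 148212 to 154880), the catalytic subunit of polymerase epsilon, read 5.96, 11.3 and 5.4 FPKM in the knockout and 12.4 and 10.8 in the wild type. Knockout replicates 1 and 3 lay far below both wild-type libraries, and replicate 2 lay between them. Its log2 fold change was -0.62 ± 0.29 with a limma adjusted p of 0.294, and -0.92 with 0.0079 without knockout replicate 2. POL1 (chromosome XIV, 430087 to 434493), which extends primers in polymerase alpha, read 7.08, 12.2 and 6.45 FPKM against 13.5 and 9.65. The pattern was that of POL2, with -0.42 ± 0.27 over all libraries, and -0.68 and a limma adjusted p of 0.0328 without knockout replicate 2. POL3 (chromosome IV, 276872 to 280165), of polymerase delta, read 8.94, 11.9 and 8.72 FPKM against 13.5 and 12.9. Here the groups did not overlap, the log2 fold change was -0.40 ± 0.16, and without knockout replicate 2 it was -0.53 with a limma adjusted p of 0.0236.

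With the length trend removed, the log2 fold changes of the catalytic subunits were smaller, at -0.26 for POL2, -0.13 for POL1 and -0.16 for POL3. With knockout replicate 2 also left out they were -0.45, -0.31 and -0.23, with limma adjusted p of 0.0738, 0.298 and 0.214, so none of the 3 passed.

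The accessory subunits were closer to 0, apart from DPB4. DPB4 (chromosome IV, 693585 to 694175), a histone-fold subunit of polymerase epsilon, read 60.9, 68.6 and 59.6 FPKM in the knockout and 79.6 and 76.2 in the wild type. The groups did not overlap, and the log2 fold change was -0.30 ± 0.10, or -0.37 with the length trend removed. Without knockout replicate 2 it was -0.36, with a limma adjusted p of 0.0298. Its partner DPB3 read 59.3, 60.0 and 56.25 FPKM against 58.4 and 51.45, with a log2 fold change of 0.09. DPB2, the other subunit, was at 25.9 to 31.6 FPKM in the knockout and at 26.4 and 38.4 in the wild type. POL12, PRI1 and PRI2 of polymerase alpha had log2 fold changes of -0.27, -0.09 and -0.20. POL31 and POL32 of polymerase delta had -0.17 and -0.18.

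The sliding clamp POL30, known as PCNA, tethers polymerases to DNA. POL30 (chromosome II, 424990 to 425766) read 92.0, 145 and 96.8 FPKM in the knockout and 135 and 119 in the wild type. Knockout replicate 2 was the highest of all 5 libraries, and replicates 1 and 3 were the lowest. The log2 fold change of POL30 was -0.22 ± 0.20, and -0.42 with a limma adjusted p of 0.0280 without knockout replicate 2. RFC1 (chromosome XV, 749301 to 751886), the large subunit of the clamp loader, read 24.5, 30.5 and 23.6 FPKM against 33.1 and 32.95. The groups did not overlap, and the log2 fold change was -0.33 ± 0.13 with an adjusted p of 0.242 in limma, and -0.44 with 0.0237 without knockout replicate 2. With the length trend removed RFC1 was at -0.13 over all libraries. The small loader subunits RFC2, RFC3 and RFC5 had log2 fold changes of -0.06, -0.15 and -0.10. RFC4 read 58.55, 52.8 and 60.1 FPKM in the knockout and 52.1 and 51.3 in the wild type, a log2 fold change of 0.14 ± 0.09.

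RPA coats single-stranded DNA. RFA1, its large subunit, read 31.5, 31.3 and 28.4 FPKM in the knockout and 35.7 and 36.7 in the wild type. The groups did not overlap, and its log2 fold change was -0.25 ± 0.10 with a limma adjusted p of 0.245, or -0.11 with the length trend removed. RFA2 and RFA3 overlapped between genotypes, with 0.05 and 0.03, and both were negative with equal FPKM sums, as was RFA3 with the length trend removed. RFA3 had the highest level of the 44, 322 to 441 FPKM.

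RAD27 (chromosome XI, 224727 to 225875) is the nuclease that cuts the flaps of Okazaki fragments. It read 48.6, 69.55 and 48.5 FPKM in the knockout and 67.9 and 68.5 in the wild type. Knockout replicates 1 and 3 were alike and below the wild type, and replicate 2 was above it. RAD27 had a log2 fold change of -0.31 ± 0.17, and -0.48 with a limma adjusted p of 0.0146 without knockout replicate 2. The ligase gene CDC9 read 12.95, 16.2 and 12.96 FPKM against 14.6 and 15.7, with overlapping groups and a log2 fold change of -0.11 ± 0.14.

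RNR1 encodes the large subunit of ribonucleotide reductase, which makes deoxyribonucleotides. It read 71.4, 66.2 and 62.3 FPKM in the knockout and 63.0 and 61.3 in the wild type, and knockout replicate 3 fell between the wild-type libraries. The difference on the log2 scale was 0.10 ± 0.09, with an adjusted p of 0.574 in limma. RNR1 was positive under every scaling, from 0.01 with equal FPKM sums to 0.30 with the length trend removed. With knockout replicate 2 also left out the latter was 0.34, with a limma adjusted p of 0.0703. Its paralog RNR3 read 2.98 to 4.04 FPKM, and reads shared by the pair could have been assigned to either.

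Knockout replicate 2 was high for most replication genes. It exceeded both other knockout libraries in 35 of 44, 79.5%, against 49.5% of all genes. Its median difference from the mean of those libraries was 0.19 on the log2 scale, against 0.06 for all genes. Against the wild type, the median of replication genes was 0.00 in knockout replicate 2 and -0.17 in replicates 1 and 3. For all genes these medians were -0.04 and -0.08. The largest gaps were those of POL2 with 0.88, POL1 with 0.76 and POL30 with 0.61. POL2 and POL1 are the longest of the 44 genes, and POL30 has 777 bp. For all genes of at least 3000 bp, the median against the wild type was -0.14 in knockout replicate 2 and -0.34 in replicates 1 and 3. Below 1000 bp these medians were 0.09 and 0.05. Replication genes with a MluI box had a median gap of 0.32 (18 genes) and those without 0.11 (26 genes). Other genes with the box had 0.15 (163 genes) and those without 0.05 (5504 genes). Of the replication genes, 14 of 18 with the box and 18 of 26 without it had a negative log2 fold change. Other genes with and without the box had median log2 fold changes of -0.11 and -0.07. For replication genes with and without it these medians were -0.19 and -0.10. The 5 with an early cell cycle box had -0.31, and 19 other genes with that box had 0.00. These sets also differed in median coding length, at 2538 bp for the 5 and 1296 bp for the 19. With a trend on length removed, MCM3, MCM5, MCM6, MCM7 and CDC6 were at -0.069, 0.136, -0.075, -0.204 and -0.203.

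**Figure D4:**
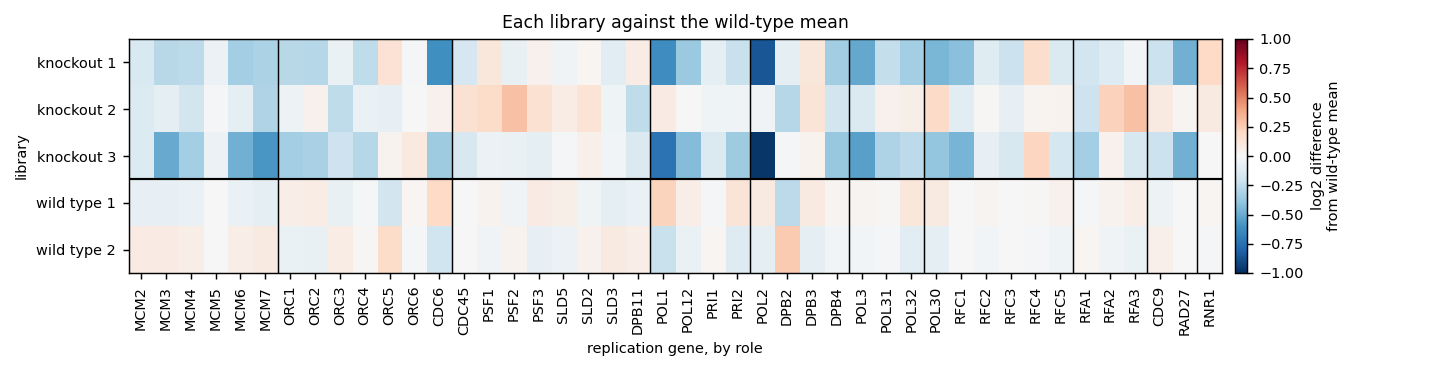
Log2 difference of each replication gene in each library from its wild-type mean, by role. Knockout replicate 2 resembles the wild-type libraries, with a median difference of 0.00, while the mean of replicates 1 and 3 has -0.175. For all genes these medians were -0.036 and -0.079.

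Markers of the cell cycle also differed between the libraries. The 8 core histone genes, made in S phase, summed to 17100, 22500 and 15500 FPKM in knockout replicates 1, 2 and 3 and to 21900 and 17000 in the wild type. All 8 were highest among the knockouts in replicate 2, as were 8 of 10 G2/M markers. Of the 10 G1/S markers 4 were highest there and 6 lowest, and of the 10 M/G1 markers 1 was highest and 7 lowest. The limma test called 0 genes of each marker list, and their median log2 fold changes were -0.11 for histones, 0.13 for G1/S, -0.12 for G2/M and -0.14 for M/G1. Without knockout replicate 2, 1 gene of each list passed the threshold, which is 1 of 8 histones and 1 of 10 in each other list. Among all 5712 tested genes 598 were then called lower and 298 higher. The G1 cyclin gene PCL1 was higher in the knockout, with a log2 fold change of 0.37 and a limma adjusted p of 0.0340. The histone H2B gene HTB2 was lower, with -0.47 and 0.0234, as were BUD4 of the G2/M list, with -0.72 and 0.0471, and PIR1 of the M/G1 list, with -0.32 and 0.0446. With the length trend also removed HTB2 passed, with a limma adjusted p of 0.0161, and PCL1, BUD4 and PIR1 did not, with 0.0620, 0.311 and 0.111. The part of cell cycle distribution in the results for replication genes was not tested.

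Gene length also moved with the fold changes. Across the 44 genes the Spearman correlation of log2 fold change with coding length was -0.56, and across all genes it was -0.52, given as descriptions since genes share the libraries. The 4 replication genes of at least 3000 bp (POL1, POL2, POL3 and MCM6) had a median of -0.41, against -0.26 for all genes of that length. The 10 below 1000 bp had 0.04, against 0.06. With the trend on length removed, the median of the 44 was -0.05.

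**Figure D5:**
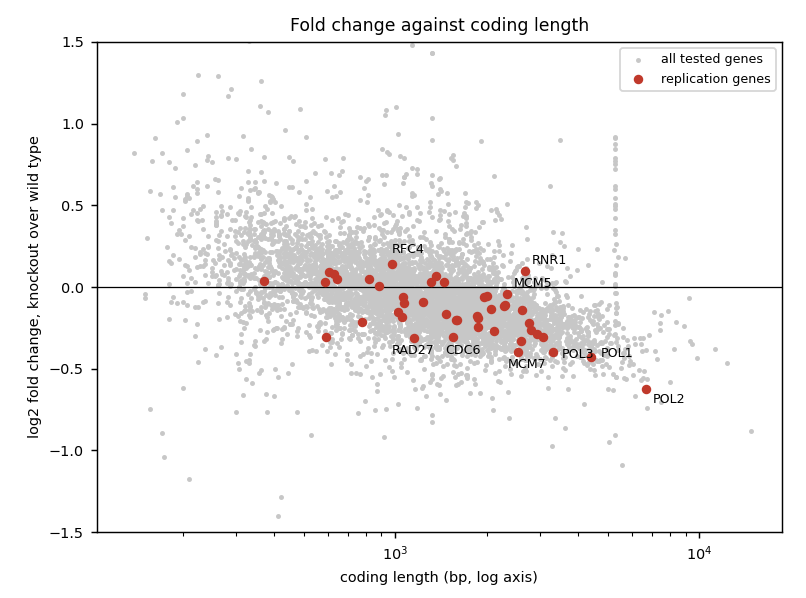
Log2 fold change against coding length in bp, on a log axis, for the 44 replication genes and all tested genes, with 12 genes beyond the axis limit of 1.5. Most long genes of both sets lie below 0, and POL2, the longest replication gene, lies lowest among the 44.

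Another 42 genes of replication, in 6 lists outside the core machinery, were also read. The limma test called 0 of them, with 2 lower (4.76%, against 11.6% of all genes) and 1 higher at an unadjusted p below 0.05. Their median log2 fold change was -0.08. Among other licensing and firing factors MCM10, which helps activate the helicase, read 5.26, 10.1 and 5.66 FPKM in the knockout and 11.6 and 9.09 in the wild type. MCM10 had a log2 fold change of -0.54 ± 0.27, and -0.80 with a limma adjusted p of 0.0153 without knockout replicate 2. TAH11, the Cdt1 partner of MCM, had -0.32. WHI5, the inhibitor of SBF that holds cells in G1, read 10.8, 12.3 and 9.94 FPKM against 15.8 and 16.85, with no overlap. Its log2 fold change was -0.53 ± 0.13 with an adjusted p of 0.169 in limma, and 0.0150 without knockout replicate 2. SWI4, the DNA-binding subunit of SBF, had -0.17. Among fork protection and clamp loader genes TOF1 had -0.31 and CTF8 0.28. Among primer removal genes DNA2 had -0.27 and RNH203 0.19. The chromatin assembly genes RTT109 and CAC2 had -0.27 and -0.25. In deoxyribonucleotide supply RNR3 had 0.14 and CDC8 -0.11. Without knockout replicate 2, 4 of the 42 (SLD7, MCM10, CAC2 and WHI5) passed the threshold, all lower in the knockout. That share of 9.52% is near the 10.5% of all genes called lower. With the length trend also removed WHI5 and SLD7 passed, with limma adjusted p of 0.0264 and 0.0326, and MCM10 and CAC2 did not, with 0.0640 and 0.118.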

How the data were processed

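Messenger RNA of 3 SUL1 knockout and 2 wild-type libraries was analysed, grouped by the genotype and title labels. The deposited values are FPKM per gene and library, per the file headers, in a table per strain. Build R64 and the tools Bowtie2, HISAT2 2.1.0, DESeq2 1.4.5 and RSEM 1.3.1 are listed, without roles, per the submitters' processing notes. No source used here gives the strand setting or annotation. Gene identifiers matched RefSeq R64 for 5883 of 5886 genes, and 2 symbols stored as dates were restored. All 5 per-sample columns were used.

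Depth was found from the step size of low FPKM values, of which 87.0% to 92.6% per library lay within 0.15 of a whole fragment, where an arbitrary depth gives 30%. This estimate took coding length less 135 to 145 bp and entered no test. No pair of libraries was identical, and replicates differed by more than sampling noise.

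Genes whose mean over the libraries reached 1 FPKM entered limma 3.58.1 (R 4.3.3) on log2(FPKM + 1) with genotype alone, a trended prior variance and robust moderation. The 5712 tested genes include all 44 replication genes, and 174 were left out. P-values were adjusted by Benjamini-Hochberg over all tested genes, at 0.05. The fit was tested on simulated data. Tables were made with Python 3.11.15, pandas 2.3.3, numpy 2.4.6 and scipy 1.17.1, and figures with matplotlib 3.10.9. Alternatives were another pseudocount, filters, scalings, a length correction, a replicate block, a constant prior variance and each library left out.

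The genes, lists and tests were chosen with earlier results of these data known. Values in every library were set by rule for the MCM genes, POL30, RNR1, CDC6, CDC45, ORC1, POL1, POL2, POL3, RFA1, CDC9, RAD27 and the gene of largest change in each role. From each further list the 2 genes of largest change were taken. ORC4, DPB3, DPB2, RFC4, RFA3, PSF3, SLD7, RNR3 as a paralog and other genes outside the rule were chosen after their values were seen.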

Additional observations from a re-analysis of the deposited data

How the results depend on the processing

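Across 15 alternatives, 14 of them planned, the count of replication genes called lower was 0, except without knockout replicate 2 and with the length trend also removed. Leaving out each knockout library in turn gave 0 to 7, with 7 only without knockout replicate 2, and the added setting gave 2. Where the count was 0, calls among all genes were few as well. They were 19 with median-ratio scaling, 6 with the length trend removed, 1 without knockout replicate 3 and 0 in the replicate block. A count of 0 among 44 genes therefore says little about the replication genes. The median log2 fold change of the 44 was -0.15 and moved to -0.047 with the length trend removed, and to -0.022 in the replicate block with the length trend removed. With equal FPKM sums it was -0.23, beside -0.15 for all genes. Among 281 values of 19 named genes, 257 kept their sign and their side of the threshold, 7 passed it and 17 changed sign. With the length trend removed, the log2 fold change was 0.081 for CDC45, 0.059 for CDC9, 0.067 for DPB11, 0.058 for MCM2 and 0.136 for MCM5. With knockout replicate 2 also left out it was 0.001 for CDC45, 0.172 for DPB11, 0.091 for MCM2 and 0.153 for MCM5. With median-ratio scaling it was 0.001 for CDC45 and 0.021 for MCM5. In the replicate block with the length trend removed it was 0.102 for CDC45, 0.073 for CDC9, 0.050 for DPB11, 0.015 for MCM2, 0.106 for MCM5 and 0.003 for ORC1. The cause was not tested.

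Samples with the same replicate number did not deviate together, with correlations of -0.37 and -0.42, so the numbers give no sign of pairing. Deviations of 2 wild-type libraries mirror each other, which fixes the opposite pairs. Knockout replicate 1 with wild-type replicate 2 had 0.367, and knockout replicate 2 with wild-type replicate 1 had 0.425. Whether libraries of different numbers belong together was not tested. The replicate block called 0 replication genes and 0 of all genes, so its count cannot tell them apart. Knockout replicate 3 has no wild-type library of its number and adds nothing to the genotype difference in that fit. The median of the replication genes, -0.125, was the same as without knockout replicate 3. Depth limits CDC6 most, and 2 wild-type libraries limit every comparison.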
